A study of Mus musculus with 4 samples.

Results

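The cell cycle genes described here are 42 genes that drive or mark passage through the cell cycle. They were taken by name, and all 42 were found among the 32287 gene features of both libraries. By role they comprise 5 genes of G1 entry, 12 genes of DNA replication, 23 mitotic genes, the chromatin protein Hmgb2 and the CDK inhibitor Cdkn1a. The data are single-cell RNA counts from the thoracic spinal cord of Cx30-tdTomato mice, in which tamoxifen switches on tdTomato through a CreERT2 driven by Cx30, a gap junction gene of astrocytes. All mice, the uninjured controls included, were young adults that had received tamoxifen and an intravenous pool of adeno-associated viruses with 23 enhancers, each in front of a reporter. The injured mice had a contusion, and segments of 5 mm around its epicentre were taken 3 days later, while the uninjured mice gave segments of the same level. Cords of several females and males were pooled per condition, dissociated with papain and sorted for tdTomato, and each condition gave 1 library. There are therefore no biological replicates, and every interval below is a 95% interval that covers counting error only.

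A cell that enters the cycle first raises D-type cyclins, which with CDK4 and CDK6 inactivate the retinoblastoma protein and release E2F factors. E2F factors turn on the genes of DNA replication, among them the MCM helicase that opens origins, the sliding clamp PCNA and the enzymes that make deoxynucleotides. Genes of G2 and mitosis, which condense chromosomes, build the spindle and carry out division, follow later through a promoter element called the cell cycle genes homology region (CHR). Astrocytes of the adult cord rarely divide but some re-enter the cycle after injury, and microglia, oligodendrocyte precursor cells (OPCs), ependymal cells and fibroblasts can also proliferate there.

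After the filter of the study (more than 500 and fewer than 50000 gene UMIs, that is unique transcript molecules, per cell) the injured library held 879 cells with a median of 6816 UMIs and the uninjured library 4159 cells with a median of 3343 UMIs. Cells were clustered without the 42 genes and without the related pathway genes, and clusters were named by markers. This gave 380 injured and 2924 uninjured astrocyte-like cells, 54 and 16 OPC-like, 129 and 32 microglia-like, 135 and 31 ependymal-like, 69 and 26 endothelial-like, 59 and 98 fibroblast-like, and 43 and 140 neuron-like cells, so the sorted cells were not astrocytes alone. Different clusters held the astrocyte-like cells of the 2 conditions: 1 cluster held 316 of the 380 injured cells (83.2%) and 7 uninjured cells, and 3 others held 27.2%, 43.6% and 29.0% of the uninjured ones. In astrocyte-like cells, astrocyte markers summed to 8458 CPM (UMIs per 1000000 gene UMIs) after injury and 9273 without it, while summed microglia markers were at 44.4 and 3.82 CPM and ependymal markers at 114 and 26.2 CPM. By Xist and Y-linked transcripts, 250 injured cells scored as female and 315 as male, against 2 and 2770 uninjured cells, although both sexes were stated for each condition. The libraries shared 7 cell barcodes.

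Levels are given as CPM, the UMIs of a gene summed over the cells of a class and divided by all gene UMIs of that class. In the injured library the mitotic genes stood highest in OPC-like cells, at 2856 CPM, followed by fibroblast-like (697), microglia-like (599) and endothelial-like cells (598), then astrocyte-like (327), ependymal-like (117) and neuron-like cells (63.7, from 5 UMIs). Neurons do not divide, so the neuron-like level was taken as a background of stray RNA. The name is uncertain, since neuron markers summed to 484 CPM in these injured cells and astrocyte markers to 1759 CPM. Without injury they were at 1701 and 5999 CPM, so this background is rough. Relative to injured astrocyte-like cells the sum was 8.74 times as high in OPC-like cells (8.05 to 9.50), 2.13 times in fibroblast-like cells (1.90 to 2.38), 1.83 times in microglia-like cells (1.67 to 2.02) and 1.83 times in endothelial-like cells (1.62 to 2.06). It was 0.359 times as high in ependymal-like cells (0.305 to 0.421). The order of the 3 classes between OPC-like and astrocyte-like cells was within or near counting error. It also rested on few cells: among cells scored as male the fibroblast-like sum was 0.230 times and the endothelial-like sum 0.308 times the astrocyte-like one, below it.

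The replication genes followed the same order only in part. They reached 704 CPM in OPC-like, 366 in fibroblast-like, 280 in microglia-like, 208 in astrocyte-like, 176 in endothelial-like and 95.01 in ependymal-like cells. The spread between the highest and lowest of these classes was thus narrower than for the mitotic genes. For the G1 entry genes OPC-like cells again led, at 1157 CPM, while microglia-like (104) and fibroblast-like cells (96.2) lay below astrocyte-like (265), endothelial-like (260.03) and ependymal-like cells (218). A class could therefore be high in mitotic transcripts with low D-type cyclin transcripts, as the microglia-like cells were.

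**Figure D1:**
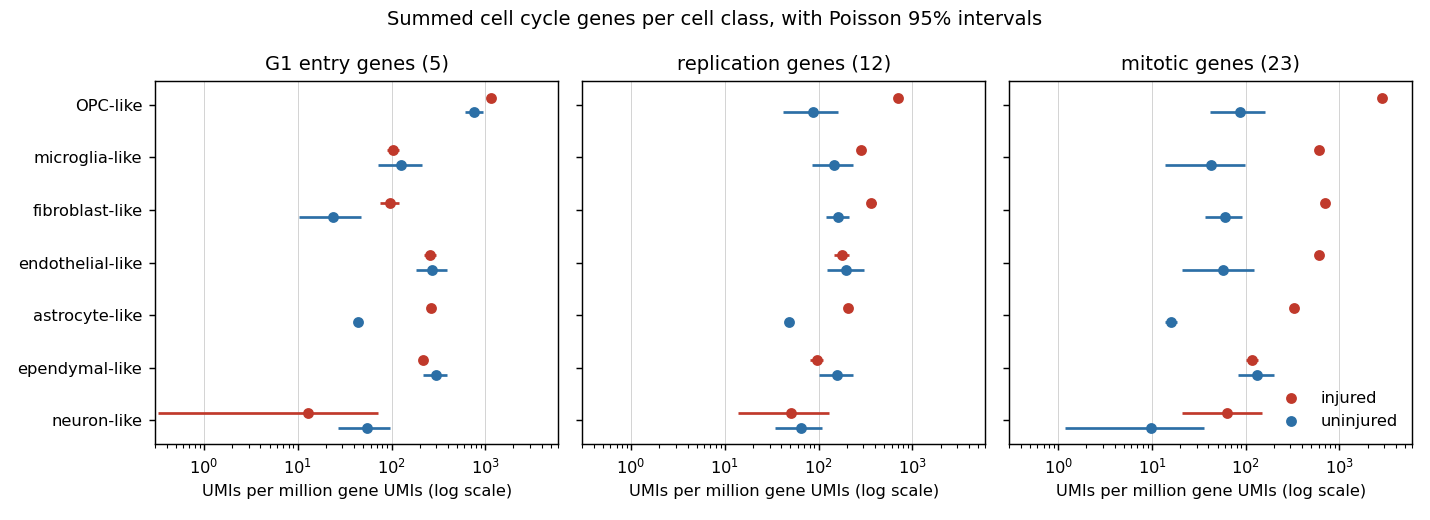
Summed level of the G1 entry genes (left, 5 genes), the replication genes (middle, 12 genes) and the mitotic genes (right, 23 genes) per class, in CPM on a log axis, with exact Poisson 95% intervals; red points are injured and blue points uninjured cells. The mitotic sum of astrocyte-like cells lies at 327 CPM (injured) and 16.0 CPM (uninjured), while the ependymal-like values of 117 and 132 CPM overlap.

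Between conditions, the mitotic genes of astrocyte-like cells were at 327 CPM after injury (699 UMIs) and 16.0 CPM without it (172 UMIs), a ratio of 20.4 (17.2 to 24.2). The replication genes differed less, at 208 and 48.1 CPM (ratio 4.33, 3.803 to 4.92), and the G1 entry genes were at 265 and 44.3 CPM (5.99, 5.29 to 6.78). Uninjured astrocyte-like cells thus held few mitotic transcripts, where uninjured neuron-like cells had 9.86 CPM from 2 UMIs. Among cells scored as male the mitotic ratio was 20.6. A gene was tested where both libraries together held at least 10 of its UMIs and called where the CPM ratio was at least 2 or at most 0.5 and its interval left out 1. In astrocyte-like cells 15.3% of the 14654 genes tested were called higher and 8.46% lower in injured cells. Of the 42 cell cycle genes 40 were tested, and 40 were called higher and 0 lower, with a median ratio of 9.83 where that of all genes tested was 1.00. A gene absent from uninjured cells can be tested only through its injured UMIs, so the 22 members with at least 10 UMIs in uninjured cells alone are the firmer count, and 22 of these were called higher.

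Of the mitotic genes, Top2a, the topoisomerase that untangles sister chromatids, had 89 UMIs in injured astrocyte-like cells (41.6 CPM) and 0 in uninjured ones. Set against a floor of 3 UMIs for the uninjured cells, Top2a was at least 149-fold higher. It was found in 22 of 380 injured cells (5.79%). Mki67, the classical proliferation marker, had 43 and 0 UMIs (at least 71.9-fold), Cdk1, the kinase that starts mitosis, 30 and 0 (at least 50.2-fold), and Bub1 of the spindle checkpoint 13 and 0 (at least 21.7-fold). Ube2c, the ubiquitin-conjugating enzyme of the anaphase-promoting complex, had 70 UMIs against 1 (ratio 351, 61.0 to 14067), and the centromere protein Cenpf 51 against 1 (256, 43.9 to 10302). Their lower bounds rather than the ratios carry the size, since a single uninjured UMI sets the denominator. Better counted were Prc1, a crosslinker of the central spindle, at 35.1 against 1.40 CPM (25.1, 14.3 to 47.0), and Birc5, or survivin, with 58 against 6 UMIs (48.5, 21.0 to 138).

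The other mitotic members called also rose, by less or with fewer UMIs. They include the spindle assembly factors Tpx2 (ratio 9.63, 5.82 to 16.3) and Nusap1 (8.83, 5.29 to 15.1), the centromere proteins Cenpa (10.4) and Cenpe (2.68), and the cyclins Ccna2 (12.9), Ccnb1 (27.6) and Ccnb2 (7.17) that activate CDK1. The kinases Plk1 and Aurka had ratios of 20.1 and 10.03, the spindle motors Kif11 and Kif20a of 11.7 and 8.78, the checkpoint kinase Bub1b of 3.86, and Cdc20, which activates the anaphase-promoting complex, of 90.3 from 18 UMIs against 1. The ratios of this group thus spread from 2.68 for Cenpe to 351 for Ube2c. Aurkb, a kinase of the chromosomal passenger complex, and the motor Kif23 had 7 and 6 UMIs in injured and 0 in uninjured cells and were not tested.

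All 12 replication genes rose in injured astrocyte-like cells, with a median ratio of 6.41. Pcna had 60.3 CPM against 14.6 (ratio 4.12, 3.24 to 5.24). Both subunits of ribonucleotide reductase, which makes deoxynucleotides, were higher but unequally: Rrm1 had 27.1 against 9.20 CPM (2.94, 2.09 to 4.10) and Rrm2, the subunit limited to S phase, 21.0 against 1.68 CPM (12.5, 7.12 to 23.02). Tyms, thymidylate synthase, had a ratio of 2.47 (1.60 to 3.76). Among the 6 helicase subunits the ratios ran from 2.66 for Mcm4 (1.72 to 4.04) over 3.76 for Mcm7, 5.30 for Mcm3, 7.53 for Mcm6 and 14.3 for Mcm2 to 33.4 for Mcm5 (9.92 to 176), which had 3 uninjured UMIs. The helicase loaders Cdc6 and Cdt1 had ratios of 8.03 (2.32 to 31.2) and 22.6 (4.67 to 215). The genes with the lowest ratios here, Tyms, Mcm4 and Rrm1, had many UMIs in uninjured cells.

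The largest single difference among the G1 genes was that of Ccnd1, cyclin D1, with 149.6 CPM after injury and 1.21 CPM without it in astrocyte-like cells (320 and 13 UMIs, ratio 123, 71.2 to 234). Its paralogue Ccnd2 had 97.3 and 39.2 CPM (2.48, 2.09 to 2.93), so the order of their levels within each library was not the same in both conditions, although 3′ counts of different genes compare only roughly. Ccne1 and Ccne2, the E cyclins of the G1/S transition, had ratios of 5.40 (2.36 to 12.5) and 2.66 (1.04 to 6.30), and the transcription factor E2f1 of 7.30 (3.18 to 17.4). Hmgb2, a chromatin protein abundant in dividing cells, was at 108 and 26.5 CPM (4.10, 3.43 to 4.89). Cdkn1a, the p21 inhibitor of cyclin-dependent kinases and a target of p53, was at 138 and 42.7 CPM (3.24, 2.79 to 3.76). Transcripts of this inhibitor were thus higher in injured cells, as were those of the cyclins, and its action was not measured.

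**Figure D2:**
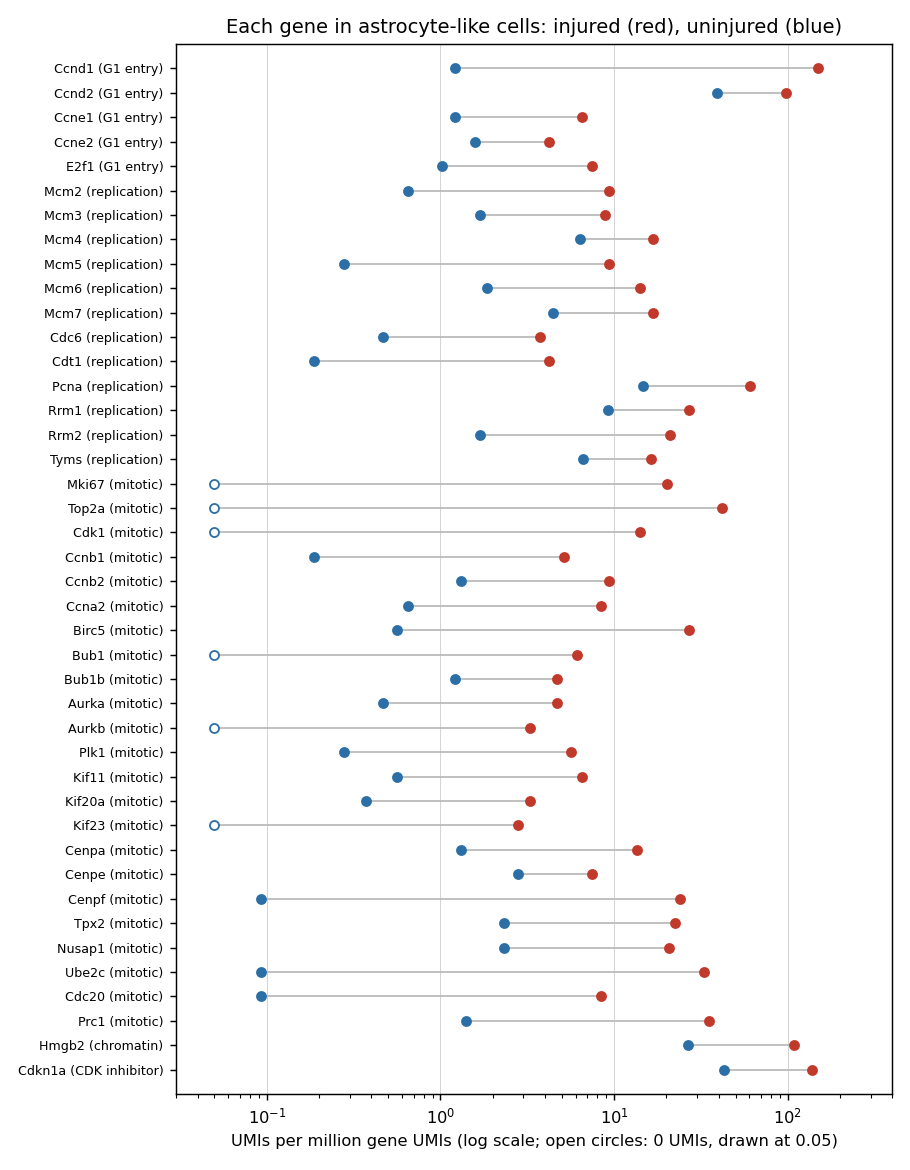
Level of each of the 42 genes in injured (red) and uninjured (blue) astrocyte-like cells, in CPM on a log axis and grouped by role. Grey lines join the injured and uninjured values of a gene and are not intervals. Open circles mark 0 UMIs. Each of the 42 points is higher in injured cells, and Aurkb, Bub1, Cdk1, Kif23, Mki67 and Top2a have 0 UMIs in uninjured cells.

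Related genes outside the 42 were less uniform. Of other S phase genes 11 of 28 tested rose and 0 fell, with a median ratio of 1.86. Among the highest were the methylation maintenance factor Uhrf1 (20 UMIs against 0, at least 33.4-fold) and the checkpoint adaptor Clspn (14.0, 4.78 to 49.8), and among the lowest Cenpu (0.684) and Casp8ap2 (0.665). Of other G2 and M phase genes 20 of 31 rose and 0 fell, with a median of 5.38, from Hmmr (120, 19.6 to 4951), Ckap2 (66.9) and Ndc80 (55.2) down to G2e3 (0.748), Ctcf (0.729) and Lbr (0.515). The late genes thus stood further from the median of all genes than the S phase genes did. Of G1 and restriction point genes 3 of 11 rose: Cdk6 (6.16), Rbl1 (2.76) and Cdk4 (2.43), while the retinoblastoma gene Rb1 (0.644), Rbl2 (0.591) and E2f4 (0.869) had the lowest ratios and were not called. Of the CDK inhibitors Cdkn2c (70.2, 17.7 to 608), Cdkn1c (55.2, 8.02 to 2375) and Cdkn2d (2.58) rose, while Cdkn1b, or p27, had a ratio of 0.509.

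Since Cdkn1a is a p53 target, a list of 12 other p53 targets was counted. In astrocyte-like cells 5 of 12 rose (Ccng1, Bax, Phlda3, Sesn2 and Gadd45a) and 0 fell, and the list had a median ratio of 2.28 where that of all genes was 1.00. Phlda3 (4.88), Plk3 (3.58, not called) and Gadd45a (3.42) had the highest ratios, and Btg2 (1.52), Trp53inp1 (0.839) and Sesn1 (0.656) the lowest. The summed list was 1.70 times as high in injured as in uninjured astrocyte-like cells, whereas the ratio of this sum was 0.419 in microglia-like and 0.414 in ependymal-like cells. Btg2 held 464 of the 1294 injured and 128 of the 192 uninjured UMIs of the microglia-like sum. The median ratio of the list was 0.936 in microglia-like cells. That of all genes was 0.787 with genes of 0 uninjured UMIs set at the floor of 3 UMIs, and 0.994 without this floor. Whether the list lay above or below all genes in this class therefore depended on the floor. In ependymal-like cells the list was at 0.686, below all genes with the floor (0.873) and without it (0.951).

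The promoters of the members were searched for the elements through which the cycle is known to time these genes. RefSeq promoter windows of GRCm38.p6, from 250 bases before to 50 bases after the annotated start, were present for 34 of the 42 genes; Ccnd1, Ccnd2, Ccne2, Mcm4, Ccna2, Aurkb, Kif20a and Tpx2 had none. The searched letters were TTTGAA and TTCGAA for the CHR, CCAAT for the CCAAT box, and TTTCCCGC, TTTGGCGC, TTTCGCGC and TTTGCCGC for E2F, on both strands. The CHR letters stood in 15 of 19 mitotic promoters and in 2 of 11 replication promoters, against 21.7% of the promoters of all 27025 genes. The E2F letters stood in 1 of 19 mitotic promoters (Cdk1) and 6 of 11 replication promoters (Cdc6, Cdt1, Mcm3, Mcm5, Mcm6 and Mcm7), against 2.60% of all genes. CCAAT was found in 17 of 19 and 8 of 11, against 41.1%. These matches describe letters and not bound sites, and a window without a match says nothing of the factor. The mitotic genes Birc5, Ccnb1, Cenpe and Nusap1 had no CHR letters in these windows, although each rose in injured astrocyte-like cells. As examples, 3 mitotic promoters, at chr11:99024140-99024439 (Top2a), chr7:135716330-135716629 (Mki67) and chr10:69352863-69353162 (Cdk1), and 2 replication promoters, at chr1:20820263-20820562 (Mcm3) and chr1:128359656-128359955 (Mcm6), all on the minus strand, are printed 5′ to 3′ with every match in capitals.
Top2a: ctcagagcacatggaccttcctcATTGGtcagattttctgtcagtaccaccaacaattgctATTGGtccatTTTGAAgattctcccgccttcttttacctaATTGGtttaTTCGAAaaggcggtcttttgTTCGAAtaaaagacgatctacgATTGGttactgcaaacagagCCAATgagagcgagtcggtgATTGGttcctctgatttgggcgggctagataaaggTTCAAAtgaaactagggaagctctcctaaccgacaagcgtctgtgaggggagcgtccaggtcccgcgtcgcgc
Mki67: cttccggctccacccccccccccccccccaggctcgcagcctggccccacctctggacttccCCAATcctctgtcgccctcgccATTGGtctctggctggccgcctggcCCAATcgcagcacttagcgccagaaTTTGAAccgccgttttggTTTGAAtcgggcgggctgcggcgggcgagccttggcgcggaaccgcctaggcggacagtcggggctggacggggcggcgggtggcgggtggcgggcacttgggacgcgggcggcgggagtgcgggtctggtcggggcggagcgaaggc
Cdk1: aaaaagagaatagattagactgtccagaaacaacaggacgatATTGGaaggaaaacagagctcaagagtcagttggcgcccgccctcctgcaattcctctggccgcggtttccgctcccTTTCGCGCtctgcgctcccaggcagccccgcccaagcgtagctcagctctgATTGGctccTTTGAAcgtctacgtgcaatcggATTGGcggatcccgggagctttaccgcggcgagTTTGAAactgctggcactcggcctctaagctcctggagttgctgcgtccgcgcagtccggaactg
Mcm3: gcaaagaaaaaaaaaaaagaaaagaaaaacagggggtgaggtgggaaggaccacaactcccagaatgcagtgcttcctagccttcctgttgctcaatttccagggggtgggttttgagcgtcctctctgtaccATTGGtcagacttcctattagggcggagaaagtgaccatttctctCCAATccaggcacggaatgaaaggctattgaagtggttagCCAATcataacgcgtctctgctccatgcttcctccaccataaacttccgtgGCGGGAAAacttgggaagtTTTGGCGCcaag
Mcm6: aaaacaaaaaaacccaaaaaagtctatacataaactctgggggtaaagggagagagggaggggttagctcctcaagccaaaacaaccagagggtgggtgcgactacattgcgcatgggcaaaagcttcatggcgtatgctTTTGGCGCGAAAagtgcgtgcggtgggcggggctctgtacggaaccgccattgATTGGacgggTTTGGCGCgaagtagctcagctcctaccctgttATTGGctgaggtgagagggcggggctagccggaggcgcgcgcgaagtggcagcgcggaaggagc
Top2a held 4 CHR and 6 CCAAT matches, Mki67 2 and 3, and Cdk1 2 and 3 with 1 E2F match; Mcm3 held 2 E2F and 3 CCAAT matches and Mcm6 3 and 2, with 0 CHR matches in both. The first pair of E2F matches of Mcm6 lies on opposite strands and shares bases.

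To see how the mitotic genes were spread over single cells, cells with at least 3 different mitotic genes were counted and are called cells carrying the mitotic set. Shares are of the cells that passed the tdTomato sort and the filter. Among injured astrocyte-like cells 26 of 380 carried it (6.84%, Clopper-Pearson interval 4.52 to 9.86%), against 1 of 2924 uninjured ones (0.0342%). With each cell thinned to 1000 UMIs, which left out 29 injured cells, the counts were 16 of 351 (4.56%) and 0 of 2854, which allows a share of up to 0.105% (3 counts of the total, as for each count of 0). Among cells scored as male the astrocyte-like share was 5.83% after injury and 0.0499% without it. Neuron-like cells, taken as a rough background, gave 0 of 43 injured cells, which allows up to 6.98%. Among uninjured ones they gave 0 of 140, which allows up to 2.14%.

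The other classes were deeper, and their shares depended more on depth. In injured OPC-like cells 22 of 54 carried the set (40.7%, 27.6 to 55.0%), and 8 of 53 after thinning (15.1%, 6.75 to 27.6%). In fibroblast-like cells 12 of 59 did so (20.3%, 11.0 to 32.8%), and 4 of 55 after thinning (7.27%). In microglia-like cells the counts were 23 of 129 (17.8%, 11.7 to 25.5%) and 4 of 121 (3.31%). Astrocyte-like cells, with a median of 3806.5 UMIs against 19038.5 in OPC-like and 13386 in microglia-like cells, kept the largest part of their share among these classes, and after thinning they were no longer below the microglia-like cells. Ependymal-like cells had 7 of 135 (5.19%, 2.11 to 10.4%) and 0 of 135 after thinning, which allows up to 2.22%, and endothelial-like cells 4 of 69 (5.80%, 1.60 to 14.2%) and 1 of 66 (1.52%). In uninjured cells of these classes the counts were 1 of 16 OPC-like, 1 of 98 fibroblast-like, 0 of 32 microglia-like, 1 of 31 ependymal-like and 1 of 26 endothelial-like cells.

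**Figure D3:**
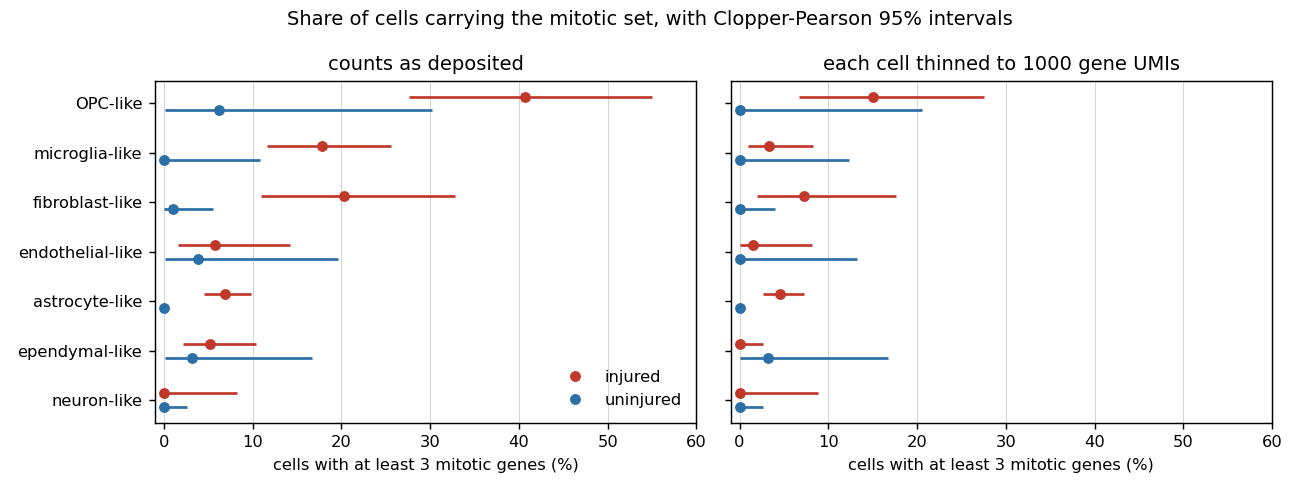
Percent of cells with at least 3 different mitotic genes per class, as deposited and with each cell thinned to 1000 gene UMIs, for injured (red) and uninjured (blue) cells, with exact Clopper-Pearson 95% intervals. Injured OPC-like cells go from 40.7% to 15.1% on thinning and microglia-like cells from 17.8% to 3.31%, while astrocyte-like cells go from 6.84% to 4.56%.

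The mitotic transcripts of the injured cells were concentrated in cells carrying the set. The rule picks cells by these same genes. The shares and gene counts given here and in the next paragraph therefore describe the cells and test nothing. The 26 astrocyte-like cells held 649 of the 699 mitotic UMIs of their class (92.8%), with a median of 7 different mitotic genes and a range of 3 to 21, and 10 of them had at least 10. Top2a was found in 18 of them and Mki67 in 11. No single cell set the class level, as the highest held 87 UMIs (12.4%). Their median was 2793.5 UMIs, against 3817 in the other injured astrocyte-like cells, but they ranged from 833 to 41326 UMIs. Of the 26, 25 lay in the cluster that held most injured astrocyte-like cells, and at a finer resolution that cluster divided into a group of 169 cells with 21 carrying the set (12.4%), led by Tagln, Tgm1, Cryab and Lcn2, and a group of 147 cells with 4 (2.72%). The former had fewer UMIs (median 2845 against 7548) and lower summed astrocyte markers (4500 against 9955 CPM).

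In OPC-like cells the 22 cells held 3024 of 3052 mitotic UMIs (99.1%) with a median of 14 genes, and 16 of them had at least 10. Their set was thus broader than in astrocyte-like cells, at a higher depth (median 29660 UMIs). In microglia-like cells 90.6% of mitotic UMIs lay in the 23 cells, but the median was 4 genes and 9 of them had exactly 3. A further 24 microglia-like cells had exactly 2, so the count of this class moves with the limit, whereas 2 astrocyte-like cells had exactly 3 and 3 had exactly 2. Fibroblast-like cells held 95.8% in 12 cells with a median of 10 genes.

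The rule for this set used mitotic genes only, so replication, G1 and other transcripts of these cells were compared with those of the other injured cells of the same class. UMIs were pooled over cells, so deep cells weigh more in each ratio. Among the 26 astrocyte-like cells 1 had 41326 UMIs where the median was 2793.5, and its part in the values here and in the next paragraph was not tested. In astrocyte-like cells the summed replication genes were at 1484 CPM in cells carrying the mitotic set and 103 CPM in the others, a ratio of 14.4 (11.9 to 17.4). Rrm2 differed most among the well-counted genes (66.1, 29.2 to 175), ahead of Mcm3 (20.9, 7.58 to 62.6), Tyms (16.2), Mcm6 (15.9), Mcm7 (15.2), Rrm1 (14.0) and Pcna (7.96, 5.48 to 11.5). Cdc6 had 8 UMIs against 0. Hmgb2 was at 727 and 57.7 CPM (12.6, 9.66 to 16.4). Of the D-type cyclins Ccnd1 was at 616 and 111 CPM (5.53, 4.32 to 7.04), while Ccnd2 showed no such difference (1.08, 0.618 to 1.78). Cdkn1a too was higher in cells carrying the set, at 388 and 118 CPM (3.29, 2.45 to 4.36).

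The pathway lists of these astrocyte-like cells followed the members. Other S phase genes were 7.70 times as high (6.73 to 8.80), other G2 and M phase genes 5.21 times (4.78 to 5.67), other CDK inhibitors 6.27 times (4.40 to 8.84) and p53 targets 2.45 times (2.06 to 2.88). The G1 and restriction point list differed little (1.23, 0.971 to 1.55). Outside the lists, the genes with the highest ratios were Pclaf, a partner of PCNA (633, at 320 CPM against 0.506 and found in 16 of 26 cells), Selenoh (19.3), the histone H2afz (18.8), the tubulin-binding Stmn1 (16.5), Ccdc34 (10.9), the tubulin Tubb5 (8.70), Tagln2 (8.25), the galectin Lgals3 (7.29), Ahnak (7.22) and the chromatin protein Dek (6.36). Lgals3 was found in only 6 of the 26 cells, Ahnak in 8 and Dek in 13, and the rest in 16 to 23. Summed astrocyte markers were lower in these cells, at 3868 against 8835 CPM (0.438), as were Aqp4 (0.516) and the acute-phase gene Lcn2 (0.306), while the filament gene Vim was higher (3.73). Summed neuron markers were also higher, at 388 against 186 CPM (2.09, 1.57 to 2.74), with 3 of 5 markers found, and their part in these results was not tested. Gfap (1.04), tdTomato (1.13) and the sum of the viral enhancer barcodes (0.757, 0.519 to 1.07) were close to those of the other cells.

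Mitotic and replication genes did not always share a cell. Of injured astrocyte-like cells 15 had the mitotic set together with at least 3 replication genes, 11 had the mitotic set with fewer, and 15 had at least 3 replication genes without the mitotic set. Among 2924 uninjured ones 5 had the replication genes without the mitotic set. In injured OPC-like cells these 3 counts were 19, 3 and 6, and in microglia-like cells 13, 10 and 12. The cells with both were deeper than those with the mitotic set alone in astrocyte-like cells (median 4595 against 2182 UMIs), and the part of depth in this split was not tested.

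**Figure D4:**
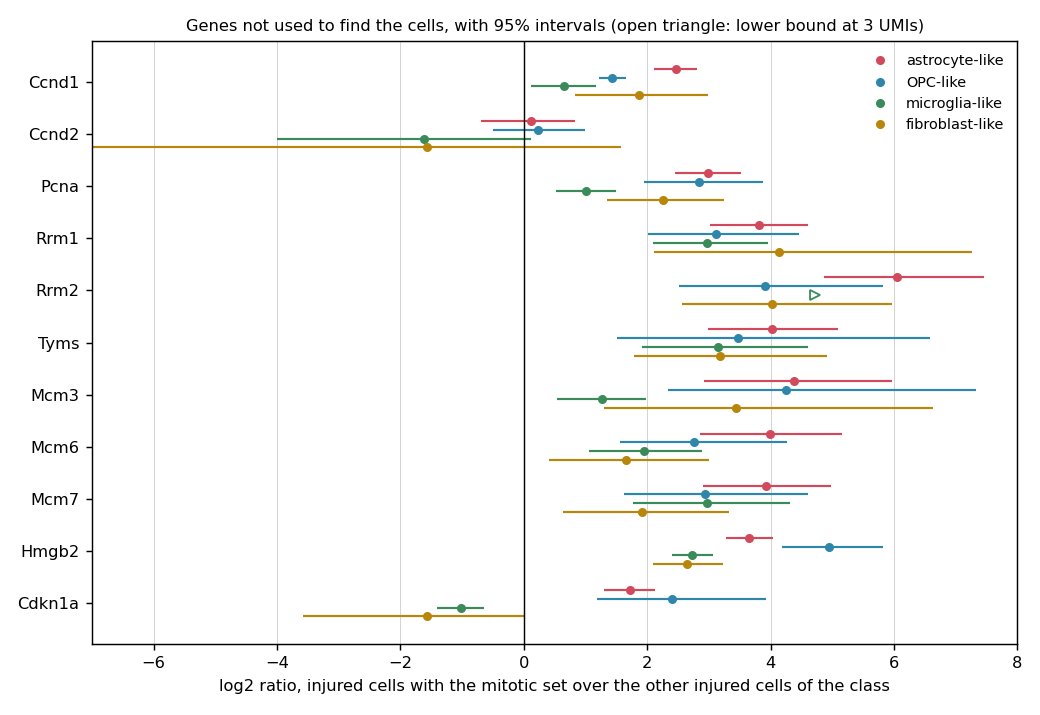
Ratio of CPM in injured cells with at least 3 mitotic genes over the other injured cells of the same class, on a log2 axis with 95% intervals, for G1 entry, replication, chromatin and CDK inhibitor genes in 4 classes; the open triangle is a lower bound. Cdkn1a lies on opposite sides of 0 in astrocyte-like (ratio 3.29) and microglia-like cells (0.493), while Ccnd2 in astrocyte-like cells lies at 1.08.

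With the cells carrying the mitotic set left out, an alternative chosen after the data had been seen, 13.7% of all genes tested in astrocyte-like cells were called higher and 7.74% lower. Of the cell cycle genes 26 were then tested, of which 11 were called higher and 0 lower: Ccnd1, Ccnd2, Ccne1, E2f1, Mcm2, Mcm5, Mcm6, Pcna, Birc5, Hmgb2 and Cdkn1a. Birc5 is the mitotic gene among them. The rule itself takes out mitotic UMIs, so how many mitotic genes stayed tested or called was set by it in part and is not a result. Ccnd1 was at 111 against 1.21 CPM (91.8, 52.6 to 175), with UMIs in 75 of 354 injured cells (21.2%) and 0.445% of uninjured ones. In neuron-like cells, taken as a rough background, Ccnd1 was found in 1 of 43 injured and 2 of 140 uninjured cells. Their median depths were 1667 and 1346.5 UMIs, against 3806.5 and 3271 in astrocyte-like cells. Ccnd2 had a ratio of 2.46 (2.06 to 2.93), near that with these cells (2.48), and Cdkn1a of 2.76 (2.35 to 3.24). The replication sum went from a ratio of 4.33 to 2.15 (1.82 to 2.53), Pcna to 2.70 (2.03 to 3.56) and Hmgb2 to 2.18 (1.74 to 2.72). Rrm2 (2.11, 0.745 to 5.30) and Tyms (1.15) no longer passed, and other S phase genes were at 1.09.

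OPC-like cells, which carry markers of oligodendrocyte precursors, had the highest levels of all 3 groups in the injured library. Their mitotic sum was 2856 CPM after injury and 86.5 CPM without it (33.0, 17.9 to 68.9), the latter from 10 UMIs in 16 cells. The replication sum was at 704 and 86.5 CPM (8.13, 4.40 to 17.0), while the G1 entry sum differed less (1157 and 761 CPM, 1.52, 1.22 to 1.91). All 42 genes were tested, 29 were called higher and 1 lower, where 5.3% of all genes tested in this class were called higher and 6.17% lower. By role, 20 of 23 mitotic, 7 of 12 replication and 0 of 5 G1 entry genes were called higher. Since 17 of the 29 had 0 UMIs in the 16 uninjured cells, 12 of those 17 were at least 2-fold higher against the floor of 3 UMIs. Of the members with at least 10 uninjured UMIs, Ccnd1 and Ccnd2, 0 of 2 were called higher and 1 lower, so each call of a higher level here was testable only through its injured UMIs.

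Top2a had 490 UMIs in injured and 0 in uninjured OPC-like cells (at least 17.7-fold higher), Cenpf was at least 11.8-fold, Ube2c at least 7.50-fold, Tpx2 at least 5.88-fold and Cdk1 at least 3.82-fold higher. Prc1 had 302 against 34.6 CPM (8.73, 3.38 to 32.3). Mki67 had 240 UMIs against 1 (26.0, 4.62 to 1029.6), Birc5 174 against 1 (18.8, 3.33 to 748), and Cenpa, Nusap1 and Cenpe, with 1 uninjured UMI each, had ratios of 14.2, 13.1 and 10.3. The mitotic members with 0 uninjured UMIs and smaller bounds were Kif11 (at least 3.46-fold), Ccnb2 (3.39), Ccnb1 (2.92), Ccna2 (2.70), Cdc20 (2.63), Kif23 (1.95), Bub1 (1.59), Bub1b (1.41) and Aurkb (1.41). Of the replication genes Rrm2 was at least 3.57-fold, Mcm3 at least 2.24-fold and Mcm5 at least 1.84-fold higher, and Pcna had 126 against 17.3 CPM (7.30, 1.98 to 60.9). Rrm1, Mcm6 and Mcm7, with 1 uninjured UMI each, had ratios of 11.0, 7.57 and 7.03. Hmgb2 had 649 against 17.3 CPM (37.5, 10.3 to 310.1), and Cdkn1a 56 UMIs against 1 (6.06, 1.04 to 243).

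The D-type cyclins of OPC-like cells behaved unlike those of astrocyte-like cells. Ccnd1 was high in both conditions, at 1052 and 579.63 CPM (1.81, 1.42 to 2.36), and was found in 70.4% of injured and 87.5% of uninjured cells. Ccnd2 fell, at 66.4 against 173 CPM (0.384). Ccne2 and Ccne1 had 18 UMIs against 1 and 12 against 0 and were not called. Within injured OPC-like cells those carrying the mitotic set had Ccnd1 at 1392 CPM against 517 in the others (2.69, 2.32 to 3.14), the replication sum at 1064 against 137 CPM (7.76, 5.92 to 10.4) and Hmgb2 at 1039.8 against 33.7 CPM (30.9, 18.3 to 56.8). Summed OPC markers had a ratio of 1.02, while neuron markers (0.0915, 48 against 334 UMIs) and fibroblast markers (0.0345, 7 against 129 UMIs) were lower in the cells with the set, and their part was not tested. Leaving the cells with the set out gave a Ccnd1 ratio between conditions of 0.923 and a replication ratio of 1.60 (0.79 to 3.69). Outside the lists the highest ratios between these cells were those of Pclaf (78.0), the kinetochore genes Spc25 (62.4), Cenpm (53.5), Spc24 (17.7) and Knl1 (at least 16.3), the histones H2afx (45.8) and Hist1h1b (at least 16.8), the kinase Pbk (at least 40.1), and Racgap1 (23.4) and Incenp (21.0), which act at the central spindle and the inner centromere. Hist1h1b was found in 6 of the 22 cells with the set, and the rest in 11 to 19.

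Of the pathway lists in OPC-like cells 10 of 31 other S phase genes and 20 of 35 other G2 and M phase genes rose, and 0 fell in either. The highest S phase ratios were those of Hells (7.14), Nasp (3.37) and Atad2 (102 UMIs against 0, at least 3.68-fold), and the highest G2 and M phase ratios those of Smc4 (7.84), Ckap2l (5.84) and Cdca8 (148 UMIs against 0, at least 5.34-fold). In these lists 16 S phase and 21 G2 and M phase genes had 0 uninjured UMIs and hence no ratio. Among the others Casp8ap2 (0.974) and Pola1 (1.08) were among the lowest of S phase, and G2e3 (1.10), Anp32e (1.14) and Rangap1 (1.51) the lowest of G2 and M phase. Of the G1 and restriction point genes 0 of 11 rose, with Rbl2 (1.84), Cdk4 (1.70) and Rbl1 (1.62) highest and Cdk6 (0.703), Myc (0.757) and E2f4 (0.865) lowest, while Cdk2 and Cdc25a had 13 UMIs each against 0. Cdkn2c was the CDK inhibitor that rose (9.09, 1.59 to 363), ahead of Cdkn2d (1.47), Cdkn1c (1.44) and Cdkn1b (0.927), while Cdkn2a had 10 UMIs against 0. Among the p53 targets 0 of 11 rose and Btg2 fell (0.265, 0.1697 to 0.423), with Ccng1 (2.00), Trp53inp1 (1.68) and Phlda3 (1.64) highest and Mdm2 (0.580) and Sesn2 (0.433) next to Btg2.

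In microglia-like cells the mitotic sum was 599 CPM after injury and 42.6 CPM without it (14.1, 6.01 to 43.4). The latter came from 5 UMIs in 32 cells. The class may hold infiltrating phagocytes beside resident microglia, which was not tested. The replication sum was at 280 and 145 CPM (1.94, 1.198 to 3.35) and the G1 entry sum at 104 and 128 CPM (0.812, 0.480 to 1.48). The mitotic sum thus stood further apart than the others. Of 38 genes tested 5 were called higher and 0 lower, where 3.75% of all genes tested in this class were called higher and 10.2% lower. Of the 3 members with at least 10 uninjured UMIs 0 were called. The 5 were Top2a (157 UMIs against 0, at least 3.25-fold), Birc5 (104 against 0, at least 2.15-fold), Ube2c (93 against 0, at least 1.93-fold), Mki67 (83 against 0, at least 1.72-fold) and Cenpf (63 against 0, at least 1.30-fold). Cenpa had 106 UMIs against 3 and was not called (2.19, 0.73 to 10.8). Pcna (79.8 and 76.6 CPM, 1.04), Mcm3 (1.45), Rrm1 (3.73, 0.64 to 150) and Mcm6 (47 UMIs against 0) were not called either, and Hmgb2 was at 205 and 111 CPM (1.85, 1.07 to 3.50).

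Ccnd1, Ccnd2 and Cdkn1a were not called in microglia-like cells. Ccnd1 was at 68.2 and 85.1 CPM (0.801), Ccnd2 had 25 and 5 UMIs (0.31) and E2f1 29 and 0, and Cdkn1a was high in both conditions, at 220 and 196 CPM (1.12, 0.74 to 1.79). Within injured microglia-like cells Cdkn1a was lower in those carrying the mitotic set, at 127.5 against 258 CPM (0.493, 0.38 to 0.64), which is the opposite of its order in astrocyte-like cells (3.29, 2.45 to 4.36). The replication sum was at 587 against 152 CPM (3.86, 3.23 to 4.62), Hmgb2 was 6.61 times as high (5.26 to 8.37), Ccnd1 1.57 times (1.08 to 2.26), and Rrm2 had 33 UMIs against 0 (at least 26.4-fold). Without these cells the replication ratio between conditions was 1.05 (0.64 to 1.84). Outside the lists the highest ratios were those of Pclaf (152), H2afx (15.04), the condensin subunit Smc2 (11.6), Sdk1 (10.1), Stmn1 (9.09), the amino acid transporter Slc7a5 (8.54), the nucleosome binder Hmgn2 (4.65), the tubulin Tuba1b (4.26), Sae1 (4.16) and Ccdc34 (3.82). Slc7a5 was found in only 4 of the 23 cells with the set, and the rest in 9 to 22.

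The pathway lists of microglia-like cells held few calls. Of other S phase genes 1 of 27 rose, Atad2 (7.08, 1.25 to 282), and 2 fell, Nasp (0.479) and the histone mRNA binder Slbp (0.251). Usp1 (4.53) and Pold3 (2.73) came next to Atad2, and 14 genes of the list had 0 uninjured UMIs. Of other G2 and M phase genes 0 of 30 were called, with Cdca8 (4.22), Smc4 (2.64) and Gas2l3 (2.48) highest and Lbr (0.435), Jpt1 (0.643) and Hjurp (0.725) lowest of those with uninjured UMIs. Of G1 and restriction point genes 0 of 12 rose and 3 fell, cyclin D3 (Ccnd3, 0.381), Rbl2 (0.311) and E2f3 (0.413), while Cdk6 (1.71), E2f4 (1.49) and Cdk4 (0.954) stood highest and E2f2 had 19 UMIs against 0. The inhibitors Cdkn2d (1.18), Cdkn1b (0.758) and Cdkn2c (0.497) were not called. Of the p53 targets 0 of 10 rose and 4 fell, Btg2 (0.225), Sesn2 (0.186), Phlda3 (0.166) and Plk3 (0.480), and Ccng1 (3.91), Plk2 (2.73) and Sesn1 (1.49) had the highest ratios. Btg2, an immediate early gene as well as a p53 target, had 245 CPM after injury and 1089 CPM without it.

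Fibroblast-like cells had the mitotic sum at 697 CPM after injury and 59.6 CPM without it (11.7, 7.49 to 19.3), the replication sum at 366 and 161 CPM (2.27, 1.70 to 3.10) and the G1 entry sum at 96.2 and 23.9 CPM (4.03, 1.95 to 9.66). Of 38 genes tested 22 were called higher and 1 lower, where 9.14% of all genes tested in this class were called higher and 8.2% lower. Of the 3 members with at least 10 uninjured UMIs, 1 was called higher (Hmgb2) and 1 lower (Cdkn1a). Of the 22, 11 had 0 uninjured UMIs, and 8 of these 11 were at least 2-fold higher against the floor: Birc5 (68 UMIs, at least 9.37-fold), Cdk1 (3.996), Tpx2 (3.72), Mki67 (3.03), Ccnb2 (2.62), Kif11 (2.34), Ccne1 (2.07) and Kif20a (2.07). Ccne2 (1.79), Ccnb1 (1.65) and Ccna2 (1.52) had smaller bounds. With 1 to 3 uninjured UMIs, Ube2c had a ratio of 21.9 (3.77 to 882), Cenpa of 21.5 (3.69 to 865), Top2a of 12.4 (3.29 to 105), Cenpf of 12.4 (2.06 to 506), Cenpe of 8.68 (1.40 to 359) and Prc1 of 5.51 (1.76 to 27.9). The replication genes called were Rrm2 (17.8, 3.02 to 718), Tyms (4.41, 1.38 to 22.5) and Mcm7 (3.58, 1.10 to 18.5), and Ccnd1 had 38 UMIs against 1 (15.7, 2.65 to 637). Pcna (1.18), Mcm6 (2.15, 0.812 to 7.17) and Ccnd2 (0.354, 0.098 to 1.23) were not called, Hmgb2 rose (199 against 80.5 CPM, 2.47, 1.63 to 3.86) and Cdkn1a fell (29.6 against 86.5 CPM, 0.342, 0.19 to 0.61).

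Of the pathway lists in fibroblast-like cells, 8 of 24 other S phase genes and 12 of 25 other G2 and M phase genes rose, among the latter Cks2, Smc4 and Hmmr, and Ckap5 fell. Of 11 G1 and restriction point genes Ccnd3 rose and Rbl2 fell, of 5 other CDK inhibitors Cdkn2b fell, and of 12 p53 targets Btg2 and Phlda3 fell. In ependymal-like cells, where 2.86% of all genes tested were called higher and 6% lower, 1 of 15 S phase genes rose (Usp1), and 1 of 17 G2 and M phase genes (Tubb4b), 1 of 10 G1 genes (Cdk6), 1 of 4 inhibitors (Cdkn2d) and 1 of 11 p53 targets (Btg2) fell.

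The fibroblast-like values rested on few cells and on which cells were kept. Of the 565 mitotic UMIs of injured fibroblast-like cells 485 lay in 24 cells scored as female and 21 in 19 cells scored as male, and among cells scored as male the mitotic ratio between conditions was 1.33 and the replication ratio 0.924. Removing the 5% of cells with the highest doublet scores gave a mitotic ratio of 4.20. Without the cells carrying the mitotic set the replication ratio was 0.846. Within the injured fibroblast-like cells those with the set had 3.63 times the Ccnd1, 6.26 times the Hmgb2 and 0.34 times the Cdkn1a (0.08 to 1.00) of the others, and the replication sum was at 755 against 134 CPM (5.64, 4.29 to 7.51). The highest ratios outside the lists were those of Pclaf (112), the chromatin protein Hmga2 (77.1), Ccbe1 (46.9), H2afx (15.6), Stmn1 (14.2), the lipid binder Fabp5 (13.6), the growth factor Pdgfa (11.6), Ddx39 (11.3), Pvt1 (11.3) and Snhg4 (9.38). Ccbe1 was found in only 4 of the 12 cells with the set, and the rest in 6 to 10.

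A further 40 injured cells had at least 50000 gene UMIs and were outside the filter. Each was given the most frequent class among its 15 nearest kept cells, which made 38 of them fibroblast-like, 1 microglia-like and 1 ependymal-like. The last name is in doubt, since that cell had ependymal markers at 163 CPM and astrocyte markers at 2720 CPM. Of the 40, 38 carried the mitotic set (95%), and 13 of 40 did so after thinning to 1000 UMIs (32.5%). They had a median of 20 different mitotic genes, 33 had at least 10, and they held 53.3% of the mitotic UMIs of the injured library with 28.1% of its gene UMIs. So much of the mitotic RNA of the injured library lay in deep cells that the filter removes. Their mitotic sum, at 2102 CPM, lay above that of all kept injured cells (718) but below that of the kept OPC-like cells (2856). The highest single count was 675 mitotic UMIs in a kept OPC-like cell, against 634 in a removed cell. Among fibroblast-like cells, those above the limit had the mitotic sum at 2047 CPM against 697 below it (2.94, 2.70 to 3.21) and the replication sum at 948 against 366 CPM (2.59, 2.30 to 2.93). Plk1 (8.45, 3.55 to 26.4), Aurka (6.70), Ccna2 (5.16), Ccnb1 (4.62), Rrm2 (3.69) and Mki67 (3.61) differed more than Top2a (2.43), Hmgb2 (2.40), Cdkn1a (2.10), Kif11 (1.29) and Cdc6 (1.17). By sex-linked transcripts 25 of the 38 scored as female and 13 as male. With these cells kept, the mitotic ratio of fibroblast-like cells between conditions was 29.6 and the share with the mitotic set 50%.

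Of the 7 barcodes found in both libraries 4 paired an injured fibroblast-like cell of 123856 to 146136 UMIs with an uninjured fibroblast-like cell of 503 to 577 UMIs. These 4 uninjured cells held 8 of the 20 mitotic UMIs of uninjured fibroblast-like cells and the class's only uninjured cell carrying the mitotic set. Without the shared barcodes, an alternative chosen after the data had been seen, the mitotic ratio of fibroblast-like cells was 19.3. The other 3 pairs held 0 mitotic UMIs.

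Ependymal-like cells, the ciliated lining of the central canal, had the mitotic sum at 117 CPM after injury and 132 CPM without it (0.886, 0.564 to 1.46), the replication sum at 95.01 and 158 CPM (0.602, 0.394 to 0.958) and the G1 entry sum at 218 and 297 CPM (0.734, 0.541 to 1.02). Among cells scored as male the mitotic ratio was 1.55, above 1. Summed ependymal markers were at 2174 and 5199 CPM (0.418), and their part was not tested. Of 18 genes tested 1 was called higher and 2 lower, where 2.86% of all genes tested in this class were called higher and 6% lower. The gene called higher was Ccnd1, with 115 UMIs against 0 (at least 3.59-fold). It was found in 19 of 135 cells, and the 7 cells carrying the mitotic set held 72 of its 115 UMIs. Mcm4 (0.30, 0.16 to 0.64) and Cdkn1a (0.289, 0.14 to 0.63) were lower, Ccnd2 was at 143 against 284 CPM (0.503, 0.365 to 0.708, not called) and Hmgb2 had a ratio of 1.01. Of the mitotic genes, Tpx2 (0.514, 0.213 to 1.502), Kif11 (0.779), Prc1 (1.59) and Cenpf (37 UMIs against 0) had the most UMIs, and of the replication genes, beside Mcm4, Pcna (0.617, 0.239 to 2.03), Rrm1 (0.624) and Mcm7 (18 UMIs against 0); none of these 7 was called. The class label of some of these 7 cells is in doubt: in sum their ependymal markers were 0.188 times and their astrocyte markers 1.88 times those of the other injured ependymal-like cells. The cell with the most mitotic UMIs (71, with 16 mitotic genes) had ependymal markers at 117 CPM and astrocyte markers at 2113 CPM, and 6 of the 7 cells had exactly 3 mitotic genes.

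In endothelial-like cells, which line blood vessels, a single cell with 32161 gene UMIs held 402 of the 446 mitotic UMIs of the injured library (90.1%). The mitotic sum was at 598 and 56.6 CPM (10.6, 4.81 to 28.9), and without the cell with the most mitotic UMIs in each library the ratio was 2.01. Among cells scored as male it was 1.05. Of 23 genes tested 7 were called higher and 2 lower, where 2.5% of all genes tested in this class were called higher and 4.61% lower. The 7 were Top2a (46 UMIs against 0, at least 2.18-fold), Mki67 and Ube2c (1.94), Prc1 (1.85), Nusap1 (1.80), Cenpf (1.42) and Cenpe (1.33), all with 0 uninjured UMIs. The 2 lower genes were Ccnd2 (0.49) and Mcm6 (0.26), and the replication sum differed by less than counting error (0.886, 0.556 to 1.48). Ccnd1 (1.23), Pcna (1.48, 0.594 to 4.74), Mcm3 (1.21), Rrm1 (0.710), Hmgb2 (1.55) and Cdkn1a, at 344 against 236 CPM (1.46), were not called. In the pathway lists of endothelial-like cells, of 17 S phase, 19 G2 and M phase and 9 G1 genes tested, 5 other inhibitors and 11 p53 targets, 0 were called.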

How the data were processed

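The authors deposited 1 matrix per condition of raw UMI counts per gene and cell, beside counts of enhancer barcodes. Their headers name Cell Ranger 7.1.0, whereas the submitters' processing notes name Cell Ranger 8.0.1 and mm10. Cells were called before deposit, with no normalisation. Cells with a gene UMI total above 500 and below 50000 were analysed. The counts were clustered with scanpy 1.11.5 and igraph 0.11.9 in Python 3.11.15 (2000 variable genes, 15 principal components, 15 neighbours, Leiden resolution 0.5), without the cell cycle genes and pathway lists, which gave 11 clusters. Of 12 marker classes 7 were found, each by the highest mean marker score above 0.2, with 3 markers in at least 10% of cells. A cluster of 10 injured and 892 uninjured cells, with astrocyte markers but led by neuron genes, stayed unnamed. No doublets were removed, since Scrublet marked 2 cells, too few for it to have worked.

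UMIs were summed per class and condition. Sums carry exact Poisson intervals, ratios exact conditional binomial intervals and shares exact Clopper-Pearson intervals (scipy 1.17.1), and with 1 library per condition no p-value was computed. The call rule was tested on simulated data for 14616 genes of astrocyte-like cells: it recovered 92.9% of 4-fold changes and called 0.687% of unchanged genes. The simulated sums were Poisson draws without spread between cells, animals or libraries. These rates therefore cover counting error only and give no error rate for the real comparison. The text gives values for the 4 members of each role with the most UMIs and each member called, the 3 highest and lowest ratios per pathway list in astrocyte-, OPC- and microglia-like cells (other classes by counts; a few of these genes are not reported here), and the 10 unlisted genes with the highest ratio and at least 50 UMIs in cells carrying the mitotic set. The members and lists were chosen with earlier results of these data known. The alternatives were other cell filters, cluster settings, limits for the mitotic set, thinning, and cells scored as male.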

Additional observations from a re-analysis of the deposited data

How the results depend on the processing

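No paired analysis was possible because there was 1 library per condition. Over 280 recomputed values 221 stayed within the counting interval of the main value (counts of genes within 1.5 times), 54 moved beyond it and 5 crossed 1. A value with a wide interval can shift and still count as within it: the OPC-like mitotic ratio ran from 33.0 to 47.7. The causes were not tested. Leiden resolution 1.0, keeping the members in the clustering and adding 1 CPM left every recomputed value within its interval. The mitotic ratio of astrocyte-like cells ran from 17.4 to 21.1 over 8 alternatives. Among cells scored as male, mitotic ratios between conditions were 1.55 (ependymal-like), 1.05 (endothelial-like) and 1.33 (fibroblast-like), and replication ratios 3.69 (astrocyte-like), 1.15 (microglia-like) and 0.924 (fibroblast-like). Mitotic sums over astrocyte-like ones were then 10.6 (OPC-like), 0.521 (ependymal-like), 0.308 (endothelial-like) and 0.230 (fibroblast-like), and shares with the mitotic set 0% in uninjured OPC-like and fibroblast-like and 10.5% in injured fibroblast-like cells. Without the cell with the most mitotic UMIs the endothelial-like ratio was 2.01. With no upper limit on UMIs, mitotic ratios were 29.6 (fibroblast-like) and 62.1 (all cells), replication ratios 5.14 and 7.90, mitotic sums over astrocyte-like ones 2.49 (microglia-like) and 5.46 (fibroblast-like), and the injured fibroblast-like share 50%. With the 5% highest Scrublet scores removed, the fibroblast-like mitotic ratio was 4.20, replication ratios were 3.25 (astrocyte-like), 1.32 (fibroblast-like) and 4.26 (all cells), mitotic sums over astrocyte-like ones 11.8 (OPC-like), 0.457 (ependymal-like), 2.48 (endothelial-like) and 0.964 (fibroblast-like), and the injured fibroblast-like share 10.4%. Without shared barcodes the fibroblast-like mitotic ratio was 19.3 and its uninjured share 0%. Without the cells carrying the mitotic set, replication ratios were 2.15 (astrocyte-like), 1.60 (OPC-like), 1.05 (microglia-like), 0.846 (fibroblast-like) and 2.06 (all cells), and 11 members were called higher in astrocyte-like cells. These last alternatives, on shared barcodes and on the mitotic set, were chosen after seeing the data. With at least 50 UMIs asked for, 18 of 18 members tested were called higher. With at least 1000 UMIs per cell the uninjured fibroblast-like share was 0%. With 2 mitotic genes asked for, shares were 0.274% (uninjured astrocyte-like), 36.4% (injured microglia-like) and 14.1% (injured ependymal-like). With 5 asked for, they were 6.98% (injured microglia-like), 0.741% (injured ependymal-like) and 0% in uninjured astrocyte-, OPC-, ependymal-, endothelial- and fibroblast-like cells. Thinned, injured shares were 15.1% (OPC-like), 3.31% (microglia-like), 0% (ependymal-like), 1.52% (endothelial-like) and 7.27% (fibroblast-like), and uninjured ones 0% in astrocyte-, OPC-, endothelial- and fibroblast-like cells. The uninjured OPC-, microglia-, ependymal- and endothelial-like values come from 16 to 32 cells each.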
